A study of Homo sapiens with 6 samples.

Results

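The tricarboxylic acid (TCA) cycle, the entry of pyruvate into it and the malate-aspartate shuttle were followed here in Hep3B, a human hepatocellular carcinoma line, through a list of 32 genes grouped by function, drawn up with earlier results of these data known. Complex II, the cycle's succinate dehydrogenase, was not among them. Of the 32 genes 30 had a probe set of their own in the annotation used, and FH and PDP2 were not analysed here. Of those 30 genes 28 were bright enough to be tested, among 13777 genes tested in the whole series, while ME3 and PCK1 were too dim. Each gene is shown by its brightest probe set over all arrays.

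Pyruvate made by glycolysis crosses the inner mitochondrial membrane through the mitochondrial pyruvate carrier and is turned into acetyl-CoA by the pyruvate dehydrogenase complex, or into oxaloacetate by pyruvate carboxylase. The cycle oxidises acetyl-CoA to carbon dioxide and hands the electrons to NADH and to complex II. The malate-aspartate shuttle moves the electrons of cytosolic NADH into the matrix by paired cytosolic and mitochondrial forms of malate dehydrogenase and aspartate aminotransferase. In liver cells the same enzymes also feed gluconeogenesis, urea synthesis and lipid synthesis.

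A pair of cell lines derived from Hep3B were compared, both stably transfected and grown under G418, to ask how expression differs in cells silenced for SDHB, the iron-sulfur subunit of complex II. Clone D20 carried the plasmid siSDHB, and the control line was clone 2 of the plasmid pU6. Each line was a single clone measured on 3 arrays, named A, B and C, so the silencing and the clone cannot be told apart. No label states whether the arrays of a clone were separate cultures, and the p-values then measure only the spread between arrays, which may be technical. The growth medium of both lines contained pyruvate and glutamine. The silencing of SDHB was not analysed here.

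The arrays measured total RNA as MAS5 signals, 1 value per probe set on a linear scale, with a trimmed mean of 500.1 on every array. The median signal was 86.2 to 92.4 on D20 arrays and 77.7 to 84.1 on pU6 arrays. The ratio of 3′ to 5′ signal of the GAPDH control probe sets was 1.11 to 1.25 on D20 arrays and 1.08 to 1.15 on pU6 arrays, and that of ACTB 1.40 to 1.68 on D20 arrays and 1.42 to 1.90 on pU6 arrays. Hepatocyte marker genes were abundant in both clones, with ALB, albumin, at a signal of 43934.7 ± 3964.5 in D20 cells and 43677.7 ± 1274.6 in pU6 cells (SD, n = 3 each), though its probe sets disagreed, with log2 fold changes of -2.39 to 0.77. Of 14 such markers tested 10 fell and 2 rose in D20, against 20.9% and 23.8% of all genes. AFP fell at -5.625, APOA1 at -3.328 and TTR at -2.995, while FGA and FGB rose at 1.093 and 1.705. The summed signal of the hepatocyte markers was 179395.1 to 202985.1 on D20 arrays and 382108.3 to 393813.9 on pU6 arrays. Among markers of other cells, the summed signal of 10 fibroblast genes was 4290.4 to 5050.6 on D20 arrays and 1251.5 to 1419.5 on pU6 arrays. Of these COL1A1 had 3439.5 to 4230.5 on D20 arrays and 0.7 to 1.7 on pU6 arrays, and without it the sum of the other 9 was 820.1 to 1131.0 on D20 arrays and 1249.8 to 1418.8 on pU6 arrays. LUM and PDGFRA fell, at -2.89 and -0.58, though a second, dimmer PDGFRA probe set rose at 2.00 (limma, Benjamini-Hochberg adjusted p = 0.0052). COL3A1 and POSTN were below the filter on dim probe sets. That of 7 blood cell genes was 257.5 to 273.5 on D20 arrays and 4022.6 to 5345.1 on pU6 arrays, where LYZ had 3627.9 to 5002.8, with the pan-leukocyte gene PTPRC below the filter. For 8 endothelial genes it was 431.5 to 543.6 on D20 arrays and 155.7 to 367.0 on pU6 arrays. Only 2 of these were tested. PECAM1 rose at 1.63, though a second probe set did not pass at 0.85, and CLDN5 did not pass at -0.72. The rest were below the filter, among them ESAM, with 97.5 to 133.6 on D20 arrays and 6.1 to 7.3 on pU6 arrays. For 6 biliary genes the summed signal was 21006.9 to 23748.9 on D20 arrays and 19579.1 to 20423.3 on pU6 arrays. Of 5 biliary genes tested 3 rose and 1 fell, against 23.8% and 20.9% of all genes. EPCAM rose at 0.41, KRT19 at 0.395 and SPP1 at 1.09, while SOX9 fell at -0.65. KRT7 did not pass the test at -0.285, though a second probe set rose at 1.25. Without EPCAM the biliary sum was 6588.0 to 6808.3 on D20 arrays and 7700.9 to 8791.5 on pU6 arrays. The part of these markers in the results was not tested.

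More of these genes were lower than higher in D20. Of the 28 tested, 14 fell, 5 rose and 9 did not pass the test, limma on log2(signal + 16) at a Benjamini-Hochberg adjusted p of 0.05, with the adjustment made across 32768 probe sets. Over all genes tested 20.9% fell and 23.8% rose by the same rule. The arrays of D20 lay wholly below those of pU6 for 14 of the 28 genes and wholly above them for 6, against 25.3% and 28.9% of all genes. The median log2 fold change, D20 over pU6, was -0.31 for the 28 genes and 0.04 for all genes. Only MPC1 and MDH2 fell and only IDH2 rose by 2-fold or more among them. Of all 13777 genes tested 911 fell and 1502 rose by as much. With the arrays scaled instead on their poly-A spike-in controls, RNAs added in known amounts, the split was 9 lower and 7 higher, and the median of all probe sets was 0.25, against 0.03 in the deposited scale. The shares of all genes called lower and higher were not counted in that scaling, so this split has no share to be read against. In bulk RNA, fewer cells of a kind and less RNA per cell cannot be told apart.

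**Figure D1:**
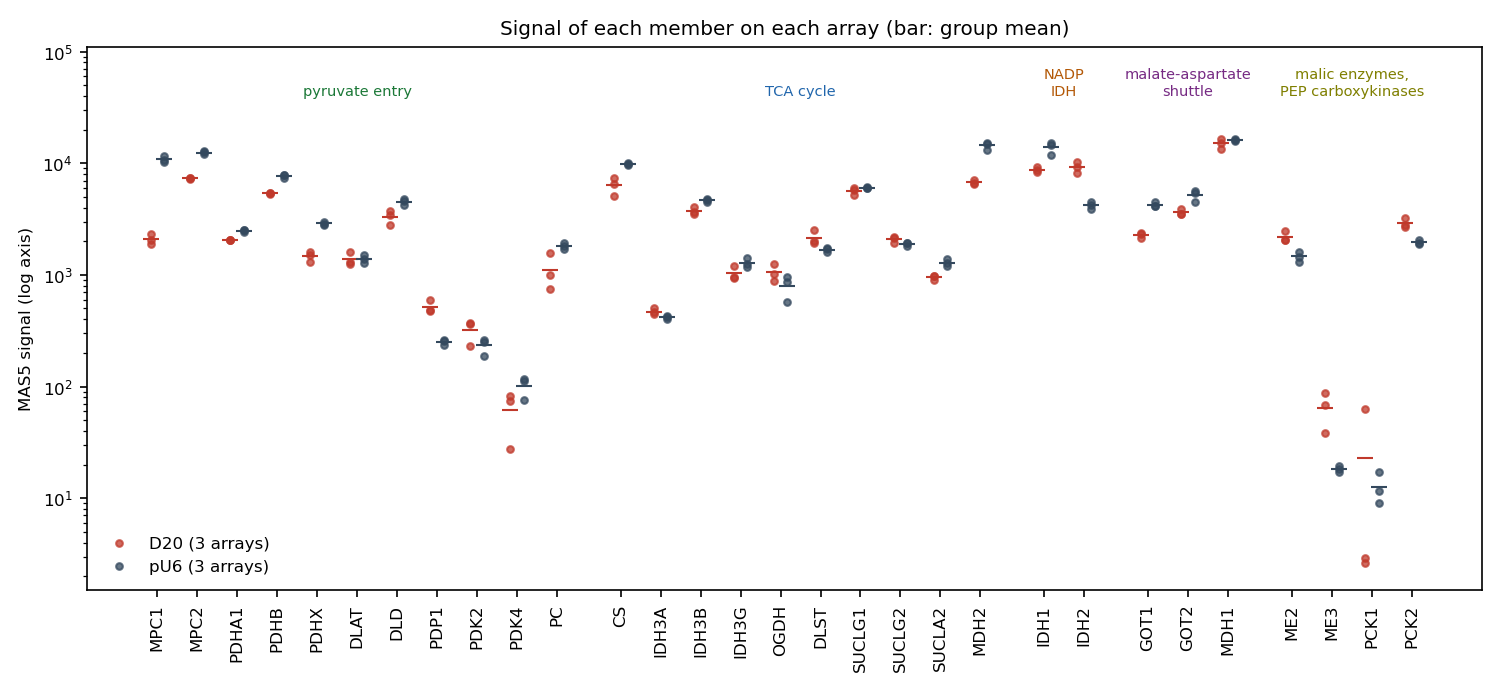
MAS5 signal on a log axis of the 30 members with a probe set, by function, with 1 point an array, a bar for the mean, and D20 left of pU6. MPC1 lay at 1894.7 to 2331.0 in D20 and 10329.6 to 11690.0 in pU6, and IDH2 at 8200.5 to 10348.8 in D20 and 3877.6 to 4475.9 in pU6.

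Pyruvate entry held the largest change. MPC1, a subunit of the mitochondrial pyruvate carrier, had a signal of 1894.7, 2060.5 and 2331.0 on the D20 arrays, against 10329.6, 10611.5 and 11690.0 on the pU6 arrays. Every D20 array was below every pU6 array, with a log2 fold change of -2.37 ± 0.096 (SE; limma, Benjamini-Hochberg adjusted p = 1.9e-09), or 5.17-fold lower. A second, dim probe set of the gene had 77.1, 2.1 and 37.9 on the D20 arrays, against 158.9, 35.7 and 89.4 on the pU6 arrays, a log2 fold change of -1.13 that did not pass the test (limma, Benjamini-Hochberg adjusted p = 0.21), and with the mean of both probe sets the log2 fold change was -1.75. MPC2, the carrier's other subunit, had 7425.7, 7184.6 and 7331.2 on the D20 arrays, against 12751.4, 12102.5 and 12509.7 on the pU6 arrays. It fell too, at a log2 fold change of -0.77 ± 0.073 (SE; limma, Benjamini-Hochberg adjusted p = 3.4e-06), and its second probe set did so at -1.11. Both subunits of the carrier were lower in D20, and their arrays did not overlap between the clones.

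Of 5 subunits of the pyruvate dehydrogenase complex 4 fell and DLAT did not pass the test, against 20.9% of all genes lower. PDHX, which anchors the E3 enzyme to the core, had 1593.4, 1294.6 and 1503.5 on the D20 arrays, against 3006.0, 2817.0 and 2875.5 on the pU6 arrays. Its log2 fold change was -0.98 ± 0.10 (SE; limma, Benjamini-Hochberg adjusted p = 8.7e-06), the largest of the complex. PDHB, the E1 beta subunit, had 5330.6, 5434.6 and 5370.9 on the D20 arrays, against 7865.0, 7409.1 and 7901.0 on the pU6 arrays, and fell at -0.52 ± 0.076 (SE; limma, Benjamini-Hochberg adjusted p = 1.4e-04). DLD, the E3 dihydrolipoamide dehydrogenase that this complex shares with the oxoglutarate dehydrogenase complex, averaged 3326.6 ± 497.6 in D20 cells and 4522.0 ± 297.6 in pU6 cells (SD, n = 3 each) and fell at -0.45 ± 0.11 (SE; limma, Benjamini-Hochberg adjusted p = 0.0066). PDHA1, the E1 alpha subunit, had 2069.9, 2072.5 and 2069.3 on the D20 arrays, against 2517.5, 2524.6 and 2406.8 on the pU6 arrays. This was a small fall at -0.26 ± 0.089 (SE; limma, Benjamini-Hochberg adjusted p = 0.036), and it did not pass the test with any 1 of the 6 arrays left out, where the adjusted p was 0.052 to 0.11. A second PDHA1 probe set of similar brightness overlapped between the clones at -0.08 ± 0.10 (SE; limma, Benjamini-Hochberg adjusted p = 0.59), and the dimmest one fell at -0.59. DLAT, the E2 acetyltransferase core, averaged 1387.1 ± 190.8 in D20 cells and 1398.1 ± 117.4 in pU6 cells (SD, n = 3 each), with overlapping arrays and a log2 fold change of -0.02 ± 0.12 (SE; limma, Benjamini-Hochberg adjusted p = 0.94).

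Of the complex's regulators PDP1 rose, and the alternative route through PC fell. PDP1, the phosphatase that switches the complex on, had 591.8, 478.4 and 481.7 on the D20 arrays, against 263.2, 234.3 and 255.6 on the pU6 arrays. It rose at 0.99 ± 0.18 (SE; limma, Benjamini-Hochberg adjusted p = 6.8e-04), and its second probe set rose as well, at 1.66. Of the kinases that switch the complex off, PDK2 had 370.9, 362.9 and 228.7 on the D20 arrays, against 187.6, 262.3 and 252.6 on the pU6 arrays and PDK4 averaged 61.3 ± 29.7 in D20 cells and 101.5 ± 22.4 in pU6 cells (SD, n = 3 each). The arrays of both overlapped, with a log2 fold change of 0.41 ± 0.24 (SE; limma, Benjamini-Hochberg adjusted p = 0.21) for PDK2 and -0.67 ± 0.43 (SE; limma, Benjamini-Hochberg adjusted p = 0.26) for PDK4. A second PDK2 probe set of nearly the same brightness passed the test, at 0.76 ± 0.26 (SE; limma, Benjamini-Hochberg adjusted p = 0.036). PC, pyruvate carboxylase, which makes oxaloacetate from pyruvate, had 994.4, 1563.6 and 752.9 on the D20 arrays, against 1705.3, 1932.8 and 1798.2 on the pU6 arrays. It fell at -0.77 ± 0.20 (SE; limma, Benjamini-Hochberg adjusted p = 0.0086), with the spread wide in D20, and did not pass without the variance trend (limma, Benjamini-Hochberg adjusted p = 0.083).

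Of the 10 cycle genes tested 4 fell and 1 rose, against 20.9% and 23.8% of all genes. MDH2, the mitochondrial malate dehydrogenase that closes the cycle, had 7055.3, 6580.1 and 6684.3 on the D20 arrays, against 15322.1, 13166.5 and 14875.5 on the pU6 arrays. It fell at -1.09 ± 0.082 (SE; limma, Benjamini-Hochberg adjusted p = 4.4e-07), with a second probe set at -0.83. CS, citrate synthase, which opens the cycle, had 7350.0, 6478.6 and 5133.0 on the D20 arrays, against 10038.8, 9654.4 and 9799.7 on the pU6 arrays, and fell at -0.65 ± 0.11 (SE; limma, Benjamini-Hochberg adjusted p = 5.3e-04). The enzymes at both ends of the cycle had the largest falls among its members, with no overlap between the clones.

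Between those ends the differences were smaller. Of the NAD-linked isocitrate dehydrogenase, which makes oxoglutarate, the subunit IDH3B averaged 3751.4 ± 251.5 in D20 cells and 4655.1 ± 168.2 in pU6 cells (SD, n = 3 each) and fell at -0.31 ± 0.086 (SE; limma, Benjamini-Hochberg adjusted p = 0.012). The call on IDH3B was lost without pU6 replicate C (limma, Benjamini-Hochberg adjusted p = 0.063). Its dimmest probe set, the only one not marked as able to match several transcripts, overlapped between the clones at -0.17 ± 0.10 (SE; limma, Benjamini-Hochberg adjusted p = 0.24). The catalytic subunit IDH3A had 500.5, 461.8 and 445.0 on the D20 arrays, against 428.5, 401.6 and 417.5 on the pU6 arrays, a log2 fold change of 0.17 ± 0.15 (SE; limma, Benjamini-Hochberg adjusted p = 0.44), and IDH3G, another regulatory subunit, one of -0.31 ± 0.13 (SE; limma, Benjamini-Hochberg adjusted p = 0.085). IDH3G passed the test without D20 replicate B, where the log2 fold change was -0.43, while with spike-in scaling it was -0.095. A second, dimmer IDH3G probe set overlapped between the clones at 0.20 ± 0.46 (SE; limma, Benjamini-Hochberg adjusted p = 0.78).

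The oxoglutarate dehydrogenase complex, which makes succinyl-CoA, was higher in 1 of its own parts. DLST, its E2 core, had 1913.8, 2501.9 and 1997.1 on the D20 arrays, against 1616.8, 1690.8 and 1748.4 on the pU6 arrays. It rose at 0.33 ± 0.12 (SE; limma, Benjamini-Hochberg adjusted p = 0.039), but not without D20 replicate B (0.21) and not with any 1 of the 3 pU6 arrays left out (0.30 to 0.36), where the adjusted p was 0.076 to 0.13. OGDH, its E1 enzyme, had 1254.8, 1027.3 and 882.1 on the D20 arrays, against 867.5, 959.6 and 565.8 on the pU6 arrays. These arrays overlapped, with a log2 fold change of 0.42 ± 0.19 (SE; limma, Benjamini-Hochberg adjusted p = 0.11), which passed without pU6 replicate B at 0.56. A second OGDH probe set had 1207.1, 970.8 and 890.0 on the D20 arrays, against 350.0, 562.2 and 431.8 on the pU6 arrays, and rose at 1.18 ± 0.18 (SE; limma, Benjamini-Hochberg adjusted p = 2.2e-04). The probe sets of OGDH differed in their call.

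Succinyl-CoA ligase, the step just before complex II, joins a common alpha subunit to a beta subunit specific for ADP or GDP. The common subunit SUCLG1 averaged 5659.9 ± 429.4 in D20 cells and 6031.8 ± 87.5 in pU6 cells (SD, n = 3 each), a log2 fold change of -0.09 ± 0.083 (SE; limma, Benjamini-Hochberg adjusted p = 0.42). SUCLA2, the ADP-specific beta subunit, had 984.5, 902.0 and 980.3 on the D20 arrays, against 1279.2, 1197.3 and 1379.3 on the pU6 arrays, and fell at -0.42 ± 0.11 (SE; limma, Benjamini-Hochberg adjusted p = 0.011). Without pU6 replicate C its call was lost (limma, Benjamini-Hochberg adjusted p = 0.065). SUCLG2, the GDP-specific one, had 2179.3, 2161.0 and 1914.5 on the D20 arrays, against 1915.5, 1823.2 and 1924.0 on the pU6 arrays, a log2 fold change of 0.14 ± 0.098 (SE; limma, Benjamini-Hochberg adjusted p = 0.3), and its other tested probe sets were at -0.01 and 0.01.

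The NADP-linked isocitrate dehydrogenases moved in opposite directions. IDH2, the mitochondrial enzyme, had 9254.1, 10348.8 and 8200.5 on the D20 arrays, against 3877.6, 4475.9 and 4233.5 on the pU6 arrays. It rose at 1.14 ± 0.098 (SE; limma, Benjamini-Hochberg adjusted p = 1.5e-06), and its second probe set rose at 0.85. IDH1, the cytosolic and peroxisomal enzyme, had 8320.2, 9171.0 and 8621.8 on the D20 arrays, against 14666.4, 11746.1 and 15300.0 on the pU6 arrays. It fell at -0.67 ± 0.10 (SE; limma, Benjamini-Hochberg adjusted p = 1.7e-04), and all 3 of its probe sets fell, at -0.82 to -0.67. IDH2 was the member with the largest rise, and neither gene had overlapping arrays.

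In the malate-aspartate shuttle both aminotransferases fell. GOT1, the cytosolic one, had 2139.0, 2362.9 and 2319.2 on the D20 arrays, against 4127.9, 4453.1 and 4168.1 on the pU6 arrays, and fell at -0.90 ± 0.088 (SE; limma, Benjamini-Hochberg adjusted p = 4.6e-06). GOT2, the mitochondrial one, had 3532.6, 3863.4 and 3474.9 on the D20 arrays, against 4468.3, 5619.2 and 5458.5 on the pU6 arrays, and fell at -0.51 ± 0.10 (SE; limma, Benjamini-Hochberg adjusted p = 0.0015). MDH1, the cytosolic malate dehydrogenase and the brightest member, had 13503.2, 16417.5 and 15263.3 on the D20 arrays, against 16499.1, 15787.8 and 16207.1 on the pU6 arrays. Its arrays overlapped, and its log2 fold change was -0.11 ± 0.084 (SE; limma, Benjamini-Hochberg adjusted p = 0.36).

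Among the members, the malic enzyme and the phosphoenolpyruvate carboxykinase that were tested, ME2 and PCK2, both rose, against 23.8% of all genes. ME2, the mitochondrial NAD-linked malic enzyme, which makes pyruvate from malate, had 2072.0, 2073.5 and 2456.6 on the D20 arrays, against 1311.1, 1457.3 and 1617.5 on the pU6 arrays. It rose at 0.58 ± 0.11 (SE; limma, Benjamini-Hochberg adjusted p = 0.0013), as did its other 2 probe sets, at 0.57 and 0.69. PCK2, the mitochondrial phosphoenolpyruvate carboxykinase, had 2776.8, 3231.0 and 2675.9 on the D20 arrays, against 1932.6, 2034.3 and 1908.9 on the pU6 arrays, and rose at 0.56 ± 0.10 (SE; limma, Benjamini-Hochberg adjusted p = 7.2e-04). ME3, the mitochondrial NADP-linked malic enzyme, was dim at 68.6, 86.6 and 38.7 on the D20 arrays, against 18.4, 17.1 and 19.6 on the pU6 arrays, with no overlap and no test. PCK1, the cytosolic carboxykinase of gluconeogenesis, was at 2.9, 62.6 and 2.6 on the D20 arrays, against 9.0, 11.6 and 17.2 on the pU6 arrays, with overlapping arrays.

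**Figure D2:**
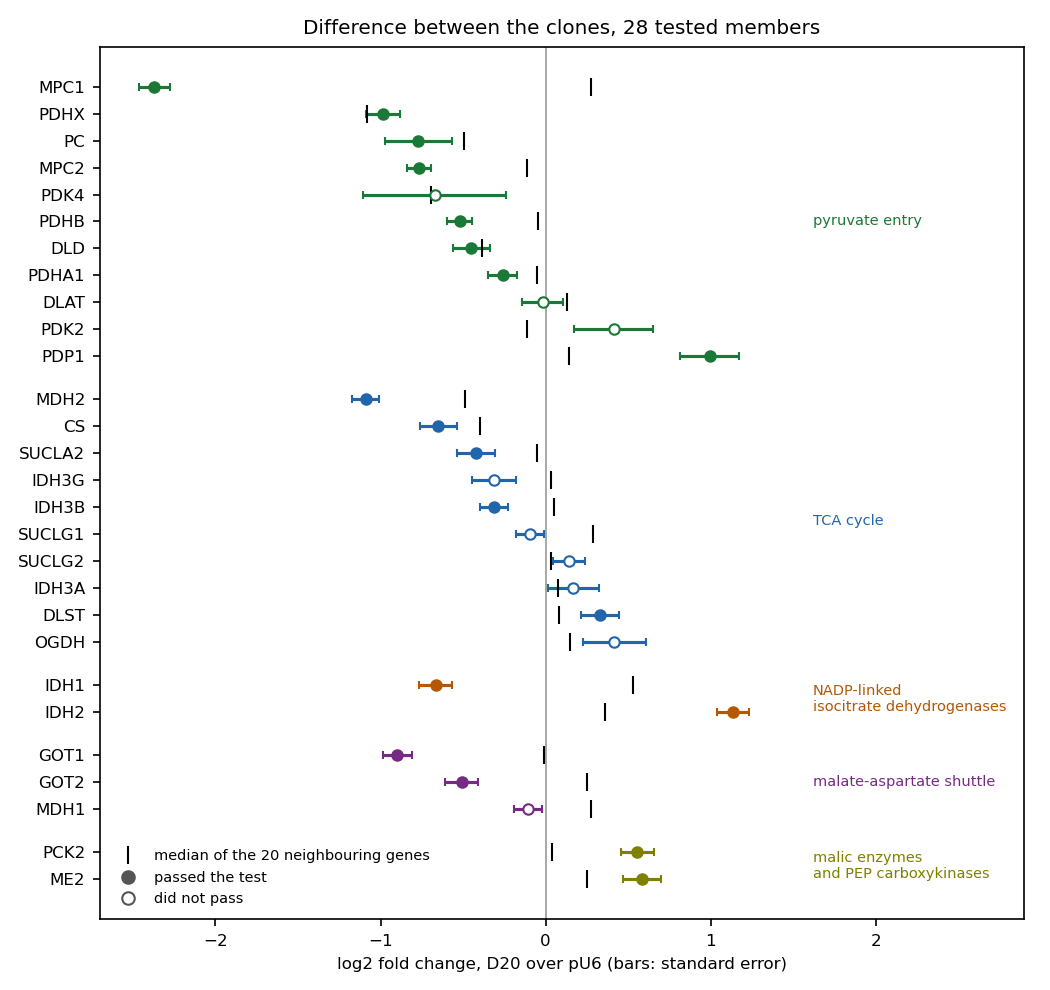
Log2 fold change of the 28 tested members, D20 over pU6, with standard errors, filled where the test was passed, and a black tick for the median of the 20 genes that neighbour each one on its chromosome. MPC1 was at -2.37 with neighbours at 0.28, and PDHX at -0.98 with neighbours at -1.08.

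Enzymes that catalyse one reaction in different compartments, or with different nucleotides, were set against each other within each array. The level of one probe set cannot be set against that of another, so only the change of their log2 difference between clones is read. IDH2 minus IDH1 was 0.15, 0.17 and -0.07 on D20 arrays, against -1.92, -1.39 and -1.85 on pU6 arrays, a shift of 1.80 towards the mitochondrial enzyme. MDH2 minus MDH1 was -0.94, -1.32 and -1.19 on D20 arrays, against -0.11, -0.26 and -0.12 on pU6 arrays, a shift of -0.98, here away from the mitochondrial enzyme. The pair GOT2 and GOT1 shifted by 0.39, from a larger fall of the cytosolic form, and SUCLG2 and SUCLA2 by 0.56. The arrays of the clones did not overlap for any of the 4 pairs. Of all single genes tested, 25.3% had D20 arrays wholly below and 28.9% wholly above those of pU6. No such share was taken over pairs of genes. An exact two-sided permutation test gave p = 0.1 for each (Benjamini-Hochberg adjusted p = 0.1 over the 4 pairs, n = 3 each), the smallest p that 3 arrays against 3 can give.

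**Figure D3:**
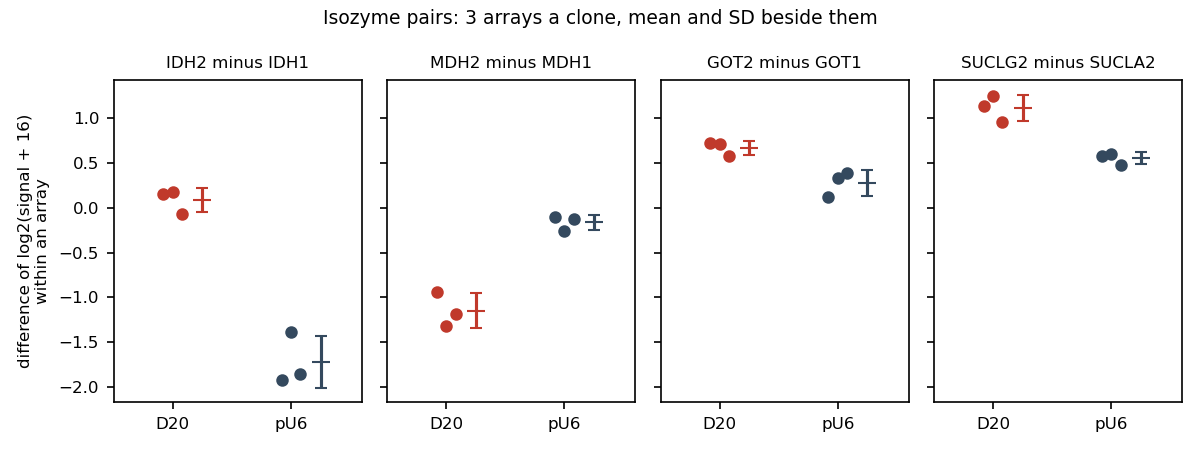
Difference of log2(signal + 16) between the genes of a pair within each array, with the mean and SD beside the 3 points of a clone, D20 left of pU6. The clones did not overlap in any pair, and the shift was 1.80 for IDH2 minus IDH1 and -0.98 for MDH2 minus MDH1. No share over other pairs of genes was taken.

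The 28 genes had 53 tested probe sets, of which 22 fell, 11 rose and 20 did not pass the test, against 17.0% lower and 19.5% higher among all probe sets. Of 18 genes with more than 1 tested probe set 8 had all of them called one way, namely MPC2, PDHB, DLD, PDP1, MDH2, IDH1, IDH2 and ME2. None had calls in both directions, and neither count was made over all genes. A mean signal above 1000 in both clones was found for 22 of the 28, against 33.7% of all genes tested.

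**Figure D4:**
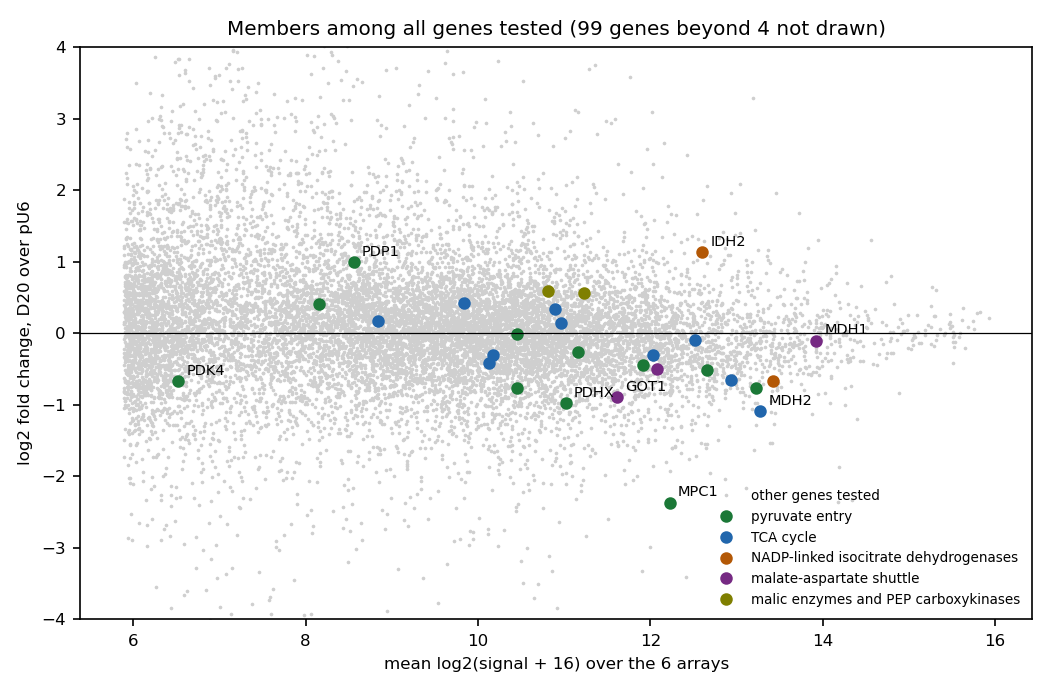
Log2 fold change, D20 over pU6, against the mean log2(signal + 16) over the 6 arrays for all 13777 genes tested (grey) and the members (coloured by function). MPC1 lies below the main cloud of genes of its brightness and IDH2 above 1, and 99 genes beyond 4 in either direction are not drawn.

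Some members lay among chromosomal neighbours that were also lower in D20. For each one the median log2 fold change of the 10 tested genes on either side was taken in RefSeq order. The counts of neighbours stand against 20.9% lower and 23.8% higher among all genes. PDHX, on chromosome 11, had neighbours at -1.08, of which 12 of 20 fell, and was itself at -0.98. A further 4 members on chromosomes 7, 11 and 12 lay in lower stretches, MDH2 (neighbours at -0.49, 10 of 20 lower), PC (-0.49, 10 of 20), CS (-0.40, 9 of 20) and DLD (-0.39, 10 of 20). PDK4, on chromosome 7, had neighbours at -0.69. MPC1, on chromosome 6, differed from its neighbours, which were at 0.28, and so did IDH1, on chromosome 2, with neighbours at 0.53. GOT1 had neighbours at -0.01 and GOT2 at 0.25, while IDH2, on chromosome 15, had neighbours at 0.36 with 9 of 20 higher. The part of such stretches in the results was not tested.

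The stretch before the start of the genes with the largest falls, MPC1 and MDH2, is shown because their call held in every alternative. It is the 250 bases upstream of the outermost RefSeq start in GRCh38.p14, 5′ to 3′, with matches to the searched motifs in capitals.
MPC1: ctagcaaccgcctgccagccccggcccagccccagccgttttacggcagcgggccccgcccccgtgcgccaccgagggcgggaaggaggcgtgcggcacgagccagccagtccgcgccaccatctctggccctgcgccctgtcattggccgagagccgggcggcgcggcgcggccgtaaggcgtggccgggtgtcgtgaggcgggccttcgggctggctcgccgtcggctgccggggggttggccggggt
MDH2: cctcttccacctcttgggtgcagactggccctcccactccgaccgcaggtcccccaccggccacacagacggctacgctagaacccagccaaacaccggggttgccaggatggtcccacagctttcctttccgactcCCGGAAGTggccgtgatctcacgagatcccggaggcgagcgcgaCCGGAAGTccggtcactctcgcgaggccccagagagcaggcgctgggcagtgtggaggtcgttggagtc
The MPC1 stretch lies at chr6:166382941-166383190 on the minus strand, has 77.6% G and C, and held no match. The MDH2 stretch lies at chr7:76047856-76048105 on the plus strand, has 66.0% G and C, and held the GABP motif at 2 places. The motifs were searched on both strands in the promoters of 23 tested members and 24882 genes in all. GABP (CCGGAAGT) was found in 3 of the 23, IDH3B, DLST and MDH2, and in 3.69% of all promoters. NRF1 (GCGCANGCG) was found in 3 and in 7.03% of all. The core of the hypoxia response element (ACGTG) was in 5, PDHB, DLAT, PC, IDH3G and GOT2, of which 3 fell, and in 18.7% of all. The ERR element (TNAAGGTCA) was in none of the 23 and in 0.864% of all. A match is a description of letters and not of binding.

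Genes that work beside these enzymes were listed apart from them. Of 13 further enzymes of the cycle, of lipoylation and of pyruvate dehydrogenase control that were tested, 3 fell and 1 rose, and the median log2 fold change was 0.12. The lower share was near the 20.9% of all genes, and 23.8% of all genes rose. ACO1, the cytosolic aconitase that also acts as iron regulatory protein, had 622.6, 572.9 and 791.4 on the D20 arrays, against 1958.5, 2128.3 and 2222.2 on the pU6 arrays, and fell at -1.66 ± 0.13 (SE; limma, Benjamini-Hochberg adjusted p = 7.8e-07). CLYBL, a mitochondrial citramalyl-CoA lyase, fell at -1.12 ± 0.12 (SE; limma, Benjamini-Hochberg adjusted p = 1.1e-05), though not with the mean of its probe sets (-0.46). LIAS, which makes the lipoyl group of the E2 enzymes, fell at -0.43 ± 0.13 (SE; limma, Benjamini-Hochberg adjusted p = 0.021), but not without D20 replicate C (-0.38), pU6 replicate A (-0.42) or pU6 replicate C (-0.45). DHTKD1, an E1 enzyme of the oxoadipate dehydrogenase complex, rose at 0.68 ± 0.094 (SE; limma, Benjamini-Hochberg adjusted p = 9.3e-05), while its second probe set was at 0.27 ± 0.12 (SE; limma, Benjamini-Hochberg adjusted p = 0.092).

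The kinases PDK1, a known target of hypoxia-inducible factor, and PDK3 did not pass the test by their brightest probe set. PDK1 had 875.8, 895.2 and 835.5 on the D20 arrays, against 767.4, 803.3 and 818.5 on the pU6 arrays, a log2 fold change of 0.12 ± 0.12 (SE; limma, Benjamini-Hochberg adjusted p = 0.46), and a second probe set that rose at 0.73 ± 0.25 (SE; limma, Benjamini-Hochberg adjusted p = 0.038). PDK3 had one of 0.47 ± 0.24 (SE; limma, Benjamini-Hochberg adjusted p = 0.16), and a dimmer probe set called in the other direction, at -0.97. The direction of PDK3 was not settled by these probe sets.

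Among carriers and enzymes that supply glutamate, malate and citrate, more genes were lower than higher. Of 15 tested 9 fell and 2 rose, against 20.9% and 23.8% of all genes, and the median log2 fold change was -0.86. SLC25A13, the aspartate-glutamate carrier of the shuttle in liver, had 1934.0, 1597.0 and 1975.6 on the D20 arrays, against 5359.8, 4989.3 and 5535.9 on the pU6 arrays, and fell at -1.52 ± 0.10 (SE; limma, Benjamini-Hochberg adjusted p = 1.5e-07) among neighbours at -0.70. SLC25A12, the carrier's other isoform, was dim at 57.8 ± 30.8 in D20 cells and 95.5 ± 37 in pU6 cells (SD, n = 3 each), and its log2 fold change was -0.64 ± 0.48 (SE; limma, Benjamini-Hochberg adjusted p = 0.33). SLC25A11, the oxoglutarate-malate carrier that completes the shuttle, had 1604.3, 1780.2 and 1550.0 on the D20 arrays, against 964.8, 1411.2 and 1140.3 on the pU6 arrays. It rose at 0.50 ± 0.14 (SE; limma, Benjamini-Hochberg adjusted p = 0.012), but not without pU6 replicate A (0.37) or without the variance trend. Its second probe set was at 0.35 ± 0.13 (SE; limma, Benjamini-Hochberg adjusted p = 0.06). The shuttle's components moved in both directions, with GOT1, GOT2 and SLC25A13 lower and SLC25A11 higher.

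GLUD1, glutamate dehydrogenase, which makes oxoglutarate from glutamate, had 896.2, 1161.6 and 1051.6 on the D20 arrays, against 3330.1, 3548.2 and 3617.8 on the pU6 arrays. It fell at -1.75 ± 0.11 (SE; limma, Benjamini-Hochberg adjusted p = 9.8e-08), though its brightest probe set can match its near-identical copy. A second GLUD1 probe set, also marked as able to match several transcripts, fell at -1.30. SLC25A18, a glutamate carrier, averaged 66.8 ± 53.3 in D20 cells and 287.9 ± 12.1 in pU6 cells (SD, n = 3 each) and fell at -2.21 ± 0.53 (SE; limma, Benjamini-Hochberg adjusted p = 0.0051), and SLC25A22, the other glutamate carrier, fell at -0.91 ± 0.19 (SE; limma, Benjamini-Hochberg adjusted p = 0.0018). Both genes listed for citrate export fell, with SLC25A1, the citrate carrier, at -1.05 ± 0.17 (SE; limma, Benjamini-Hochberg adjusted p = 3.0e-04) and ACLY, ATP citrate lyase, at -0.64 ± 0.075 (SE; limma, Benjamini-Hochberg adjusted p = 2.1e-05). LDHA, which turns pyruvate into lactate, had 11581.9, 12294.0 and 11264.9 on the D20 arrays, against 20671.7, 21313.0 and 21685.7 on the pU6 arrays, and fell at -0.86 ± 0.073 (SE; limma, Benjamini-Hochberg adjusted p = 1.3e-06) among neighbours at -0.59. GPT, a cytosolic alanine aminotransferase, and SLC25A10, the dicarboxylate carrier, fell at -0.94 and -1.03. The GPT call was lost without pU6 replicate A (-0.90) or B (-0.84), and that of SLC25A10 without pU6 replicate B (-0.76). GPD2, the enzyme of the glycerol phosphate shuttle, rose at 0.39 ± 0.11 (SE; limma, Benjamini-Hochberg adjusted p = 0.015), but not without D20 replicate A (0.36) or pU6 replicate B (0.34). The calls on SLC25A18, SLC25A10 and GPD2 were also lost without the variance trend. SLC25A18 was dim in D20, at 6.0, 88.7 and 105.7.

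Across all 16 alternative settings 12 of the 19 called members kept their call. These were MPC1, MPC2, PDHB, PDHX, CS, MDH2, IDH1 and GOT1, which were lower, and PDP1, IDH2, ME2 and PCK2, which were higher. The other 7, PDHA1, DLD, PC, IDH3B, SUCLA2, GOT2 and DLST, each lost it in 1 to 9 settings. With spike-in scaling DLD was at -0.23, SUCLA2 at -0.20, GOT2 at -0.29, IDH3B at -0.09 and PDHA1 at -0.04, none past the test, while OGDH (0.63) and SUCLG2 (0.36) passed it. Spike-in scaling shifts all probe sets of an array alike. The members' median minus that of all probe sets, -0.34, was therefore bound to be the same in either scaling.

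**Figure D5:**
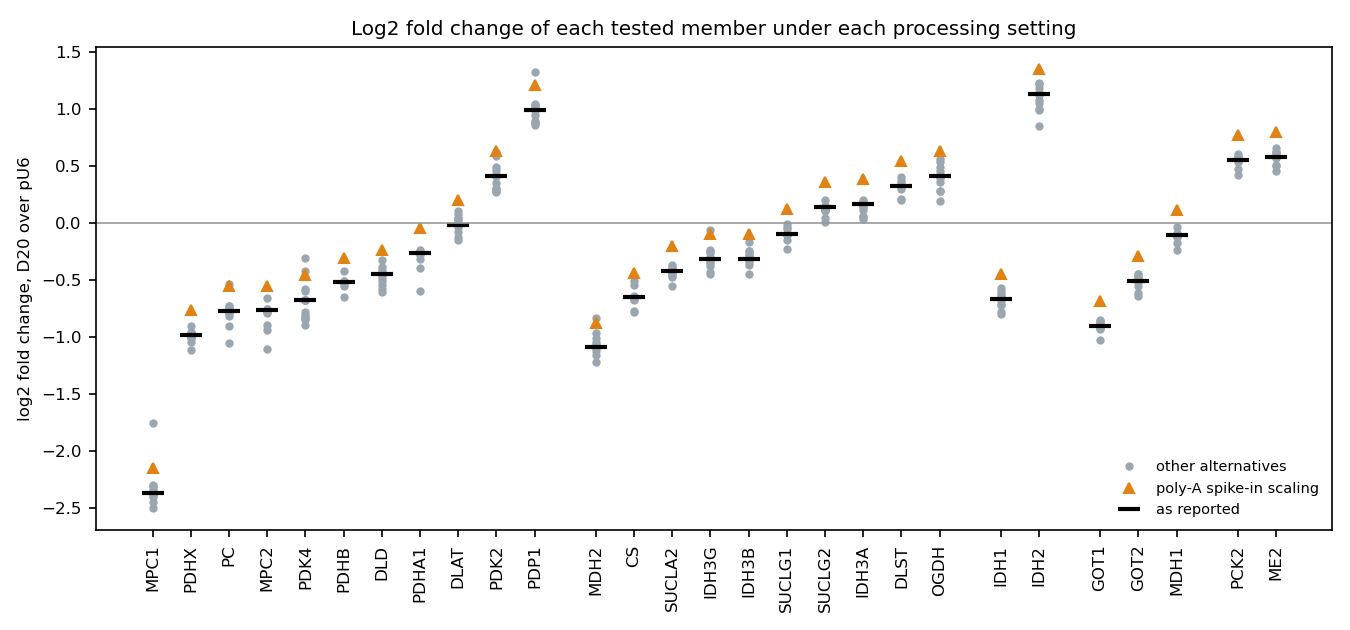
Log2 fold change of each of the 28 tested members, D20 over pU6, as reported (black bar), with poly-A spike-in scaling (orange triangle) and in the other alternatives (grey points). Spike-in scaling moved every member up, to -2.15 for MPC1 and 1.35 for IDH2, and turned the sign of DLAT, SUCLG1 and MDH1, which did not pass the test.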

How the data were processed

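RNA of 6 arrays of Hep3B cells was analysed, 3 of clone D20 and 3 of clone pU6, grouped by sample title. The deposited intensity values are signals per probe set that the authors made with MAS5, per the submitters' processing notes; their version and scaling target were not found in the labels, and no detection calls were used. MAS5 scales every array to a common mean, so a change of total RNA per cell would not show. Of 54675 probe sets, 62 were controls, 41091 had 1 gene symbol in GEO's platform annotation, 1801 had several and 11721 were not listed; 41037 symbols were updated by Entrez identifier through the RefSeq table of GRCh38.p14. The annotation is old, and unlisted probe sets were tested but not named.

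Signals were transformed to log2(signal + 16), which understates fold changes of dim genes. Controls and the 40% of other probe sets with the lowest mean (below 43.2) were left out. D20 was compared with pU6 by limma 3.58.1 in R 4.3.3 (lmFit, eBayes with a variance trend, two-sided) over all 32768 remaining probe sets, tested on simulated data beforehand. With 3 arrays a group, precision is limited by their number.

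The members and gene lists were chosen with earlier results of these data known. Named genes are all members, further pathway genes that passed the test or were listed by name, and a few bright markers. Deviations of arrays of the same letter correlated at -0.02, 0.05 and 0.01, so the letters were not taken to pair the arrays. Alternatives were the letter as a block, pseudocounts of 1 and 64, no filter, 3 other scalings, no variance trend, 2 other choices of probe set, and leaving out each array.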

Additional observations from a re-analysis of the deposited data

How the results depend on the processing

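Every alternative kept the median log2 fold change of the members below 0, and each found more lower than higher members. With the poly-A spike-in scaling 9 members were lower in place of 14, and the median was -0.10 in place of -0.31, because that scaling raised all probe sets in D20. Centring each array on its median moved it to -0.44. Leaving out probe sets that can match several transcripts left 21 members tested and a median of -0.51, and averaging all probe sets of each gene gave -0.28. Leaving out 1 array at a time gave medians between -0.36 and -0.27. With the replicate block 15 members were lower and 6 higher, with IDH3G and OGDH added, and the letters were not shown to pair the arrays. The counts of higher members stayed between 4 and 7. The shares of all genes called were counted in the reported setting only. No member's call reversed. Signal over background limits what can be said of PDK4, ME3 and PCK1.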
